A study of Mus musculus with 8 samples.

Results

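The expression of 40 cell-cycle genes was followed in mouse embryonic kidney: genes that cells use while they copy their DNA (S phase, 18 genes) or enter and complete mitosis (G2/M, 22 genes). The genes were chosen by name, with earlier results of these data known, and all 40 are among the 21291 gene rows of the deposited expression table. RNA was measured in kidney pairs taken at E14.5, in 4 mutant libraries (Six2-GFPcre tg/+; Etv4-/-; Etv5fl/fl) and 4 control libraries (Six2-GFPcre tg/+; Etv4+/-; Etv5fl/fl). Both groups therefore carried the Six2-GFPcre transgene, whose Cre recombinase acts in nephron progenitors and their descendants, and 2 floxed copies of Etv5. As labelled, Etv4 alone set them apart: it was homozygous null in mutants and heterozygous in controls. Etv4 and Etv5 encode ETS-family regulators induced by FGF and RET signals, and the series asks what their removal from nephron progenitors does to kidney gene expression. Each library holds whole kidneys, so that stroma, ureteric bud, vessels and blood contribute alongside the cells in which Cre acts, and the labels do not restrict the Etv4 null allele to any cell type.

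A dividing cell first expresses the genes that license and fire replication origins, make deoxynucleotides and copy DNA, largely under E2F transcription factors that are released when cyclin-dependent kinases inactivate the retinoblastoma family. Later it expresses the genes that condense chromosomes, build the spindle and separate the daughters, many of which carry a cell cycle genes homology region (CHR) and CCAAT boxes in their promoters and are activated by B-MYB, FOXM1 and the MuvB complex. In the embryonic kidney, division is brisk in nephron progenitors, in the ureteric bud tips and in the early nephron, and falls as tubules and podocytes differentiate.

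Promoter sequences show both programmes that the gene set joins, and 4 are printed because together they carry the CHR, CCAAT boxes and some of the E2F octamers searched. None of the 4 holds the CHR variant that was also searched. In the RefSeq promoters of GRCm38.p6 (250 bases before to 50 after a gene's start), 32 of the 40 genes had an entry; Mcm4, Gins2, Ccne2, Ccna2, Foxm1, Tpx2, Aurkb and Kif20a did not. The letters searched on both strands were TTTGAA (the CHR), the variant of it that reads TTTAAA, the CCAAT box, and the E2F octamers TTTCCCGC, TTTGGCGC, TTTCGCGC and TTTGCCGC; capitals mark the CHR, CCAAT and the octamers in either orientation. TTCAAA therefore marks a CHR on the other strand, ATTGG marks the same for the CCAAT box, and neighbouring matches can overlap. Mcm6 (S phase, helicase subunit; chr1:128359656-128359955, minus strand) holds E2F octamers and CCAAT boxes but no CHR, Cdk1 (mitotic kinase; chr10:69352863-69353162, minus strand) holds an E2F octamer, CHRs and CCAAT boxes, and Top2a (topoisomerase of chromosome condensation; chr11:99024140-99024439, minus strand) and Ube2c (ubiquitin-conjugating enzyme of mitotic exit; chr2:164769679-164769978, plus strand) hold the CHR and CCAAT boxes without an octamer.
Mcm6: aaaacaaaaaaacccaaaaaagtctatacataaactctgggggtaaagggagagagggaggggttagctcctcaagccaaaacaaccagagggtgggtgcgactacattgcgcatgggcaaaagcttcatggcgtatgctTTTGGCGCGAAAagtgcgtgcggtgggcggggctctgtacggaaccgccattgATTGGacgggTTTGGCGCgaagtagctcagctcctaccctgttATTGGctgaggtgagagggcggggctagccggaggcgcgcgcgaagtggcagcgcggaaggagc
Cdk1: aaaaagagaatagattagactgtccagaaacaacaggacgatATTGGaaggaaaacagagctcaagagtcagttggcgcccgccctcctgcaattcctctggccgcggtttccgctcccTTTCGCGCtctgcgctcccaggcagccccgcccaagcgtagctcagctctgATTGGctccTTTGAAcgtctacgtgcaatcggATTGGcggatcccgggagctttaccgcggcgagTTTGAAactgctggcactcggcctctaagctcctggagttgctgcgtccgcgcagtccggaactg
Top2a: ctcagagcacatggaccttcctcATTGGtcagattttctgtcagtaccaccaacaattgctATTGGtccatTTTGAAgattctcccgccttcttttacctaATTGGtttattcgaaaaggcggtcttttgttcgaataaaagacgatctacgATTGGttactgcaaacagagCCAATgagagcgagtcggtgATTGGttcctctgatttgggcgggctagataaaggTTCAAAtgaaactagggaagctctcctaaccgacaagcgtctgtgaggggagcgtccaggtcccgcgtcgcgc
Ube2c: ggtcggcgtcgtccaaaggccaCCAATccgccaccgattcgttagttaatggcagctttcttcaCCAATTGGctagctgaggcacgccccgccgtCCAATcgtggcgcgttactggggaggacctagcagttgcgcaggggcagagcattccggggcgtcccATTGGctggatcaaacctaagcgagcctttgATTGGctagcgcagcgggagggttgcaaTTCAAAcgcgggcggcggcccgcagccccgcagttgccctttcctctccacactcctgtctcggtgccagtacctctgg

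The CHR was held by 13 of 17 mitotic promoters (76.5%), 2 of 15 S-phase promoters (13.3%) and 20.2% of 27025 promoters in all. The variant TTTAAA was held by 7 of 17 mitotic promoters (41.2%), 4 of 15 S-phase promoters (26.7%) and 14.9% of all promoters. An E2F octamer stood in 6 of 15 S-phase promoters (40%: Mcm3, Mcm5, Mcm6, Mcm7, Cdc6 and Uhrf1), in 1 of 17 mitotic promoters (Cdk1, 5.88%) and in 2.61% of all promoters. CCAAT was found in 16 of 17 mitotic promoters (94.1%), 10 of 15 S-phase promoters (66.7%) and 41.1% of all promoters. These are matches of letters, with no measurement of binding. In Cdk1 the CHR nearest to the gene start began 15 bases before it, in Top2a 23 bases and in Ube2c 29 bases before it, each with a CCAAT box 48 to 58 bases before the start.

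Values below are normalized counts: estimated counts recovered from the deposited log2 values and divided by a size factor per library. They compare libraries for one gene and not one gene with another, since they are not corrected for transcript length. Total estimated counts were 35308934 to 38824018 in the mutant libraries and 15515139 to 39548327 in the control libraries. Control 4 had the lowest total, and Lars2 alone took 18.4% of it, against 0.138% to 0.476% elsewhere; the lowest estimated count of any of the 40 genes was 454 (Ccne2). Etv4 averaged 239 ± 59.8 normalized counts in mutants and 2687 ± 250 in controls (SD, n = 4 each), and Etv5 averaged 2120 ± 511 in mutants and 3614 ± 491 in controls. Etv4 fell by 3.51 on the log2 scale (SE 0.18, limma adjusted p = 2.6e-05), whereas Etv5 differed by -0.79 (SE 0.18, limma adjusted p = 0.106) without passing the test. Ddx3y, a Y-linked gene, had 0 normalized counts in every mutant library and 1553 to 1629 in every control library, so that genotype and sex cannot be told apart in any comparison below.

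None of the 40 genes passed the test between mutants and controls. Limma was fitted over 14974 genes with Benjamini-Hochberg adjustment and a threshold of 0.05; it called 45 genes (0.301% of those tested), 12 higher and 33 lower in mutants, and all 40 cell-cycle genes were tested with adjusted p between 0.362 and 1.00. At an unadjusted p under 0.05, 3 of the 40 genes, all lower in mutants, were found (Uhrf1, Ccne1 and Tyms), against 5.72% of all genes being lower by that measure. Limma's voom, another way of weighting the same counts, called 0 of the 40, and the limma fit with a weight for each library called 1, Uhrf1 (adjusted p = 0.0393), while calling 748 genes in all. Of the 40 fold changes, 37 were negative and 3 positive, where 48.3% of all genes were negative; the median was -0.09 on the log2 scale, against 0.01 over all genes tested. These signs depend on the scaling. With total counts in place of size factors, the median of all genes was 0.14 and that of the 40 genes 0.04. Of the 40 fold changes, 14 were then negative (4 of 22 mitotic, 10 of 18 S-phase). Upper-quartile scaling and quantile normalization each gave 36 of 40 negative, and no depth correction gave 0 of 40. Negative counts below are those with size factors. Every 95% interval lay within 1 log2 unit of 0, and 34 of 40 lay within 0.5, so changes beyond 2-fold in either direction lie outside the intervals for all 40 genes. In whole-kidney RNA, fewer dividing cells and less of each RNA per dividing cell cannot be told apart.

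**Figure D1:**
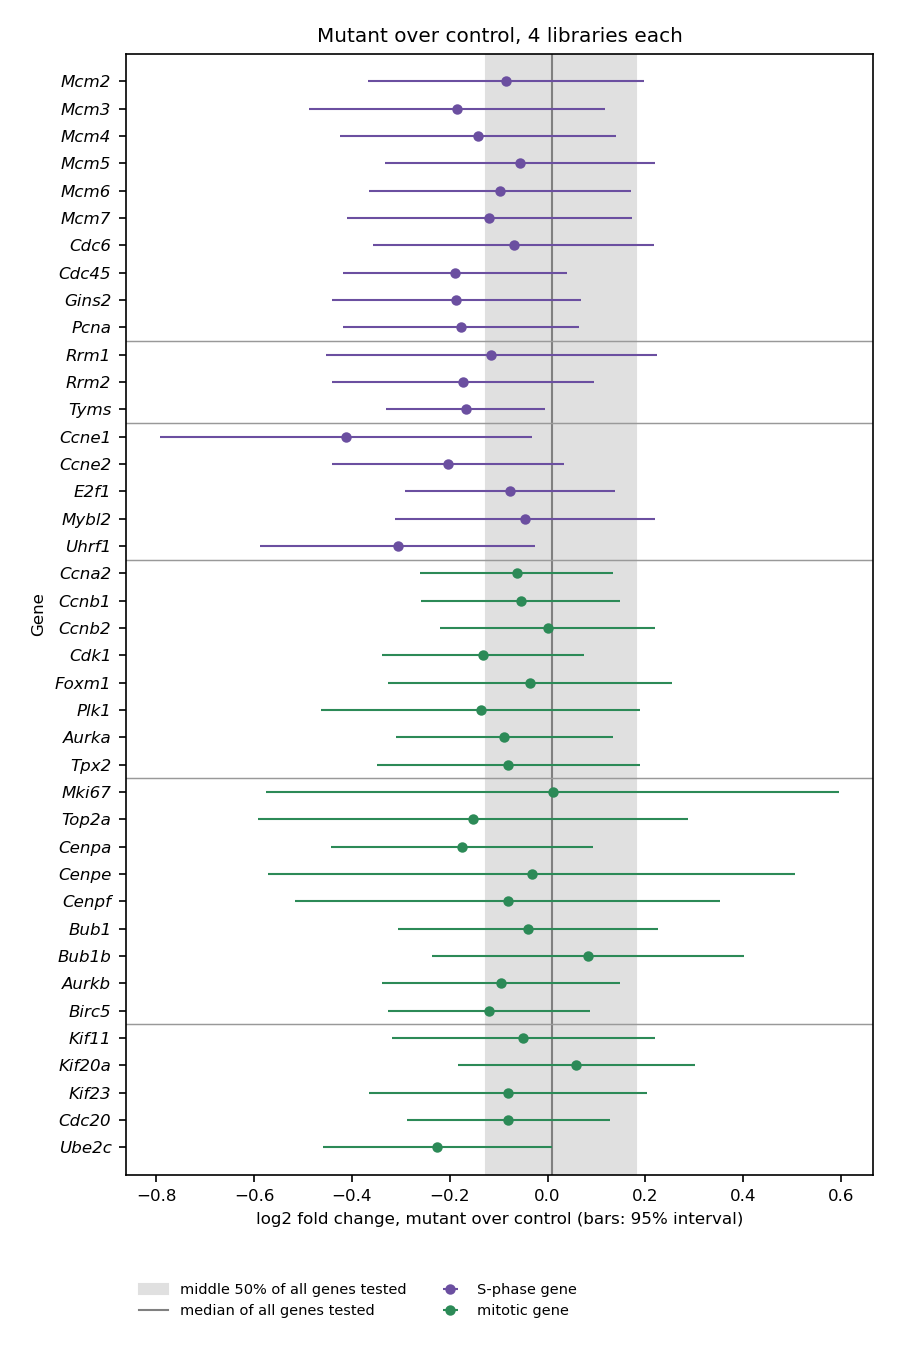
Log2 fold change of mutant over control for each of the 40 genes (horizontal axis, points) with its 95% interval (bars), ordered by role down the page, over 4 mutant and 4 control libraries. The grey band holds the middle 50% of all 14974 genes tested; 37 of 40 points lie below 0 (14 of 40 with total-count scaling), and every interval stays within 1 log2 unit of 0.

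The replication genes comprise the helicase subunits Mcm2 to Mcm7, the loading factor Cdc6, the helicase activators Cdc45 and Gins2, and Pcna, the sliding clamp of DNA polymerase. None of the 10 passed the test; all 10 fold changes were negative, between -0.19 and -0.06, with a median of -0.13. Pcna (chr2:132249162-132253314 on GRCm38) had 9441, 8859, 7907 and 7001 normalized counts in mutants 1 to 4, against 9181, 9318, 8443 and 10470 in controls 1 to 4. Its groups overlapped, mutants 1 and 2 lying among the controls and mutants 3 and 4 below all of them. Pcna differed by -0.18 (SE 0.11, limma adjusted p = 0.553). Cdc45, with the lowest fold change and the smallest p of the role, had 1233, 1251, 1145 and 960 normalized counts in mutants, against 1347, 1202, 1357 and 1306 in controls. Mutants 3 and 4 were again below every control, and the fold change was -0.19 (SE 0.10, limma adjusted p = 0.504). Mcm5 had the highest fold change, -0.06 (SE 0.12, limma adjusted p = 0.891), from 11283, 10354, 9314 and 7648 normalized counts in mutants and 10705, 10554, 9777 and 8826 in controls. Here mutant 1 was the highest of all 8 libraries and mutant 4 the lowest. The other 7 (Mcm2, Mcm3, Mcm4, Mcm6, Mcm7, Cdc6 and Gins2) had fold changes between -0.19 and -0.07.

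Rrm1 and Rrm2, the subunits of ribonucleotide reductase, and Tyms, the enzyme that makes thymidylate, supply deoxynucleotides. Of these 3 none passed, with fold changes of -0.11, -0.17 and -0.17. Tyms (chr5:30058202-30073617) had 4103, 4488, 3980 and 3833 normalized counts in mutants, against 4689, 4426, 4740 and 4538 in controls. The groups met only where mutant 2 exceeded control 2, and Tyms had the smallest standard error of the 40 genes (-0.17, SE 0.07, unadjusted p = 0.0449, limma adjusted p = 0.397). Rrm2 showed 4528, 4063, 3574 and 3020 in mutants, against 4374, 3915, 4215 and 4450 in controls (SE 0.12, limma adjusted p = 0.604). Rrm1 showed 14187, 13323, 11170 and 9375 in mutants, against 14828, 12874, 13797 and 10337 in controls (SE 0.15, limma adjusted p = 0.811). For both reductase subunits the mutant libraries spread more widely among themselves than the group means differed.

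The regulators of S-phase entry held the 2 lowest fold changes of the set, those of Ccne1 and Uhrf1. Ccne1 and Ccne2 encode E-type cyclins, which start S phase with CDK2; E2f1 encodes an activating E2F factor; Mybl2 encodes B-MYB; and Uhrf1 encodes the protein that brings the maintenance DNA methyltransferase to newly copied DNA. All 5 fold changes were negative (median -0.20) and none passed. Uhrf1 (chr17:56303321-56323486) had 10824, 10001, 9666 and 8011 normalized counts in mutants, against 13628, 11848, 12548 and 9684 in controls. Controls 1 to 3 stood above all mutants, and control 4 fell among them, close to mutant 3. Uhrf1 averaged 9626 ± 1182 in mutants and 11927 ± 1665 in controls (SD, n = 4 each), a fold change of -0.31 (SE 0.13, unadjusted p = 0.0353, limma adjusted p = 0.362). Ccne1 (chr7:38097984-38107534) had 1915, 2149, 1675 and 1153 normalized counts in mutants, against 2428, 2055, 2246 and 2225 in controls. Only mutant 2 reached the range of the controls, and mutant 4 lay well below the rest; the fold change was -0.41 (SE 0.17, unadjusted p = 0.0364, limma adjusted p = 0.369), the lowest of the 40 genes. Without mutant 4 it was -0.23. Mybl2 had 2298, 2166, 2069 and 1683 in mutants, against 2361, 2236, 2067 and 1804 in controls, with groups that overlapped almost completely (-0.05, SE 0.12, limma adjusted p = 0.916). Ccne2 and E2f1 differed by -0.20 and -0.08.

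The genes of mitotic entry are the cyclins Ccna2, Ccnb1 and Ccnb2, their kinase Cdk1, the transcription factor Foxm1, the kinases Plk1 and Aurka, and Tpx2, which activates Aurora A on the spindle. Their 8 fold changes lay between -0.14 and -0.00, with a median of -0.07, and none passed. Cdk1 had 3848, 3632, 3493 and 3305 normalized counts in mutants, against 3636, 3817, 3671 and 4572 in controls. Control 4 was the highest library and mutants 3 and 4 the lowest (-0.13, SE 0.09, limma adjusted p = 0.611). Plk1 had 6358, 5783, 5109 and 4147 in mutants, against 6764, 5594, 6231 and 4829 in controls (-0.14, SE 0.15, limma adjusted p = 0.752). For Plk1 it was control 4 that stood lowest in its group. Ccnb2 had the smallest fold change of the set in either direction, -0.00 over all libraries and 0.09 without control 4. It had 2724, 2732, 2599 and 2685 normalized counts in mutants, against 2517, 2655, 2389 and 3252 in controls. Its means were 2685 ± 60.9 in mutants and 2703 ± 382 in controls (SD, n = 4 each, limma adjusted p = 1.00).

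Genes of chromosome structure and the kinetochore include Mki67, which encodes the Ki-67 coat protein of mitotic chromosomes, Top2a, the centromeric histone Cenpa, the kinetochore proteins Cenpe and Cenpf, the checkpoint kinases Bub1 and Bub1b, and Aurkb and Birc5 of the chromosomal passenger complex. Of these 9, 7 fold changes were negative and 2 positive, and none passed. Mki67 (chr7:135689784-135716361) had 19372, 17572, 15847 and 11680 normalized counts in mutants, against 21778, 16794, 18698 and 8948 in controls. Control 4 was the lowest of all 8 libraries and mutant 4 the next, and each group's spread was far larger than the distance between the means (0.01, SE 0.26, limma adjusted p = 0.991). The fold change of Mki67 was -0.26 without control 4 and 0.16 without mutant 4. Top2a had 18463, 16136, 14944 and 11189 in mutants, against 20546, 16948, 18826 and 11612 in controls, where the fourth library was again lowest in each group (-0.15, SE 0.20, limma adjusted p = 0.806; -0.32 without control 4 and -0.01 without mutant 4). Cenpa had 2574, 2952, 2501 and 2413 in mutants, against 2619, 2766, 2763 and 3722 in controls. In contrast to Mki67, control 4 was its highest library (-0.17, SE 0.12, limma adjusted p = 0.604; -0.06 without control 4). Bub1b, the highest fold change of the set, had 8164, 7404, 6800 and 5592 in mutants, against 7222, 7090, 6953 and 5134 in controls (0.08, SE 0.14, limma adjusted p = 0.858; -0.03 without control 4).

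Kif11, Kif20a and Kif23 encode kinesins of spindle assembly and cytokinesis, and Cdc20 and Ube2c drive the anaphase-promoting complex towards mitotic exit. None of the 5 passed, and 4 of 5 fold changes were negative. Ube2c had 5345, 5353, 5200 and 4502 normalized counts in mutants, against 5581, 5625, 5526 and 7213 in controls. It was the single gene of the 40 whose groups did not overlap, every mutant lying below every control, a pattern that 4.43% of all genes tested showed in the same direction. Controls 1 to 3 stood only slightly above mutants 1 to 3; the fold change was -0.23 (SE 0.10, limma adjusted p = 0.434) over all libraries, -0.13 without control 4 and -0.07 without mutant 4 and control 4. Kif20a had 4603, 4196, 4014 and 3196 in mutants, against 3996, 3824, 3806 and 3625 in controls; mutants 1 to 3 were the highest libraries and mutant 4 the lowest (0.06, SE 0.11, limma adjusted p = 0.870). Kif11, Kif23 and Cdc20 differed by -0.05, -0.08 and -0.08.

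**Figure D2:**
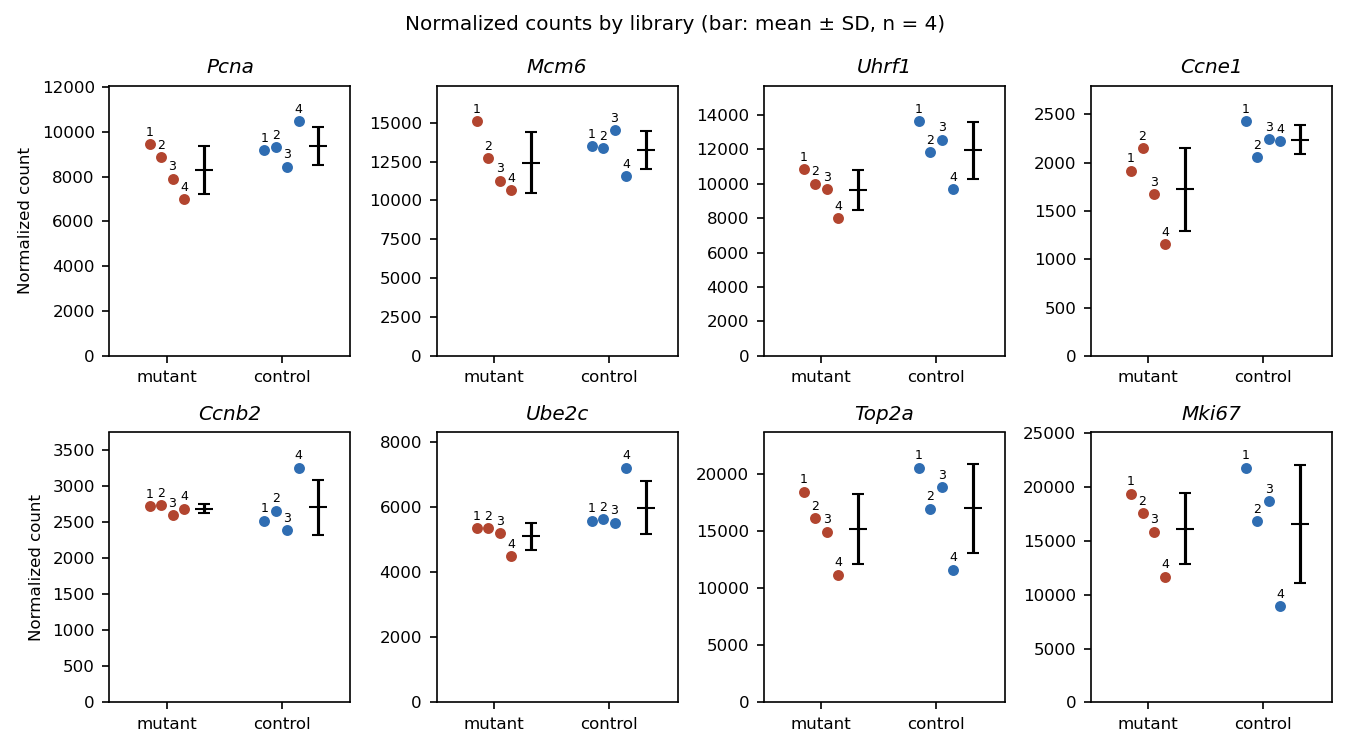
Normalized counts (vertical axis, from 0) of 8 genes in each mutant library (left, red) and control library (right, blue), numbered by replicate, with the mean and SD of each group as a bar (n = 4). Mutant 4 is the lowest mutant for 7 of these genes, Ccnb2 being the exception, while control 4 is the highest control for Pcna, Ccnb2 and Ube2c and the lowest for Mcm6, Uhrf1, Top2a and Mki67.

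The genes varied together across libraries, and the libraries of one group stood far apart. Mutant 4 was the lowest of the 4 mutants for 37 of 40 genes and the lowest of all 8 libraries for 33. For 34 genes mutant 3 was the next lowest mutant, and for all 40 the highest mutant was mutant 1 or mutant 2. Mutants 1 and 2 were both below controls 1 and 2 for 2 of the 40 genes. The 4 libraries named m755 or c755 (mutants 1 and 2, controls 1 and 2) gave a median difference of -0.005 log2 over the 40 genes, with 22 negative and 18 positive. In the pair named m816 and c816 (mutant 4 against control 4), the median difference was -0.25, with 36 of 40 negative; that comparison holds 1 library of each genotype. Without mutant 4 the median was -0.006 over the 40 genes, with 24 of 40 fold changes negative, and was 0.0045 over the mitotic and -0.06 over the S-phase genes. Among the genes described above, leaving out mutant 4 gave 0.05 for Mcm5, 0.05 for Mybl2, -0.00 for Rrm1 and -0.02 for Plk1. The regulators of S-phase entry were negative in all 5 genes within the m755 and c755 libraries too, with a median of -0.14, and Uhrf1 differed there by -0.29. Pearson's r between pairs of genes over the 8 libraries had a median of 0.61 among mitotic genes, 0.70 among S-phase genes and 0.64 between the phases; the libraries, their depth and their scaling are shared by all these pairs.

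**Figure D3:**
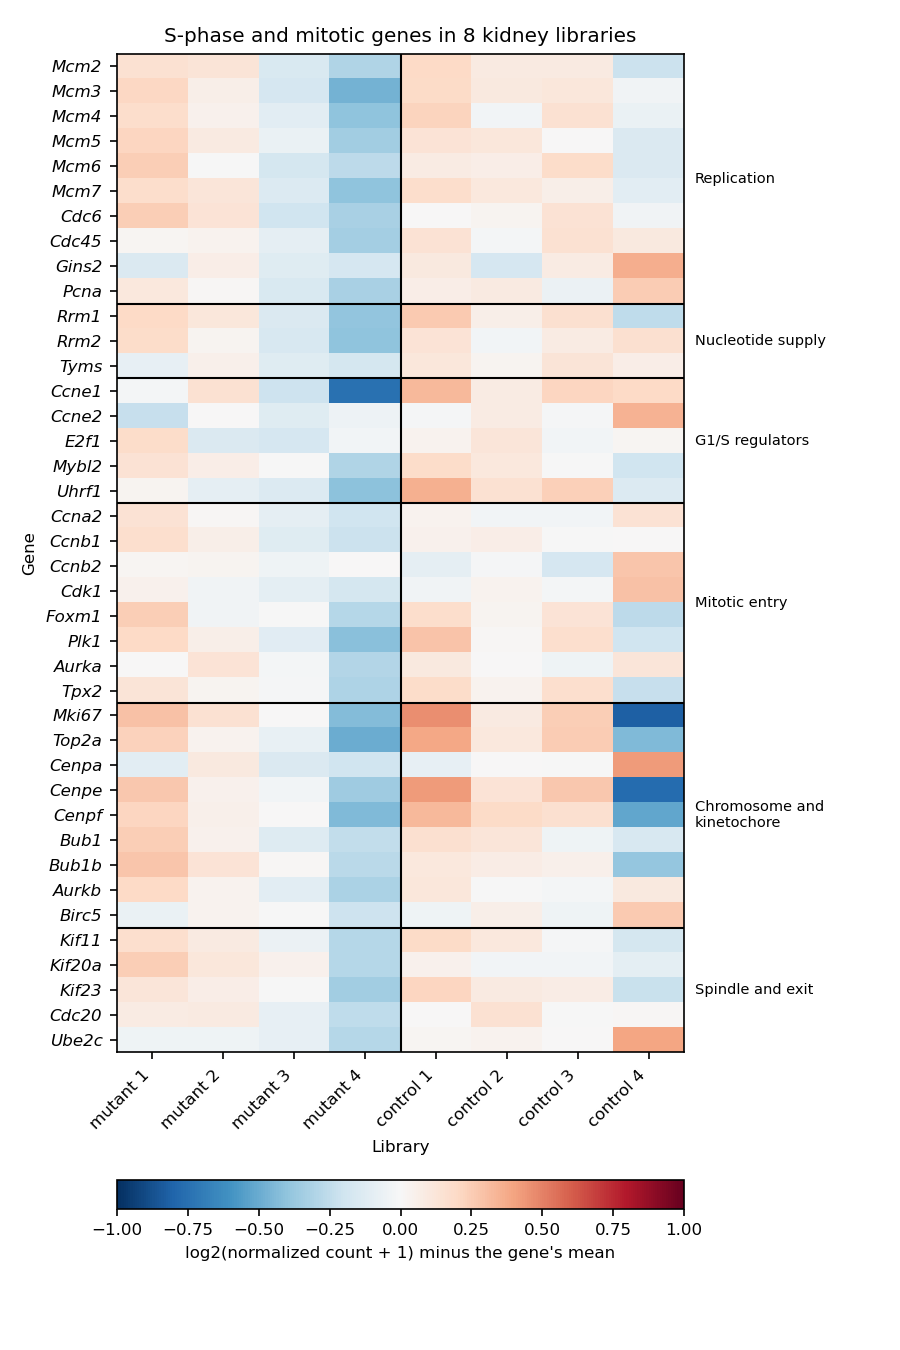
Expression as log2(normalized count + 1), centred on each gene over 8 libraries (colour, red above and blue below the mean) for the 40 genes in rows, grouped by role, and the libraries in columns, mutants left and controls right. Mutant 4 is blue in nearly every row, mutants 1 and 2 resemble controls 1 to 3, and control 4 is mixed, being blue for Mki67, Top2a, Cenpe and Cenpf and red for Cenpa, Ccnb2 and Ube2c.

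Mitotic and S-phase genes were then set side by side. Of the mitotic fold changes, 19 of 22 were negative with a median of -0.08, and all 18 S-phase ones were negative with a median of -0.15; 6 mitotic and 12 S-phase genes lay below -0.1. Each phase was summarized by a score per library: log2 values were centred on each gene's mean over the 8 libraries and averaged over genes. The mitotic score was 0.14, 0.05, -0.05 and -0.29 in mutants 1 to 4, against 0.14, 0.06, 0.05 and -0.10 in controls 1 to 4. The S-phase score was 0.10, 0.05, -0.14 and -0.33 in mutants, against 0.15, 0.06, 0.10 and 0.01 in controls. Both scores ran in the same order in the mutants, and the groups overlapped. Mutants 1 and 2 lay within the range of the controls in the S-phase score. Mutants 2 and 3 did so in the mitotic score, where mutant 1 lay just above control 1, the highest control, although both round to 0.14. The mitotic minus S-phase score was 0.040, 0.007, 0.084 and 0.039 in mutants, against -0.014, 0.003, -0.045 and -0.112 in controls. Every mutant lay above every control, although mutant 2 and control 2 were 0.007 and 0.003. The groups averaged 0.04 ± 0.03 in mutants and -0.04 ± 0.05 in controls (SD, n = 4 each), a difference of 0.08. This difference was 0.06 without control 4, 0.03 within the m755 and c755 libraries and 0.15 in the m816 and c816 pair. The longest transcript had 11130 bases among mitotic genes and 4614 among S-phase genes, and the part of transcript length in the difference was not tested. No test was made on the difference, because it is a summary over chosen genes.

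The level of the set was laid beside the maturity of the kidneys, read from 14 tubule and podocyte genes (9 of which could be tested; Slc34a1, Slc22a6, Fbp1, Slc12a1, Umod and Slc12a3 were among those listed at 0 in at least 1 library). Their score was -1.79, -0.69, 1.71 and 3.33 in mutants 1 to 4, against -2.43, -1.07, -1.54 and 2.48 in controls 1 to 4. Mutants 3 and 4 and control 4 stood high and the other 5 libraries low, in 2 separate clusters, so no correlation is given. The 3 libraries with the high maturity score also had the 3 lowest S-phase scores and the 3 lowest mitotic scores of the 8. Control 4 was the least clear of these. Its S-phase score was 0.01, against 0.05 in mutant 2, the next library. By role, control 4 scored -0.26 for chromosome and kinetochore genes, which include Mki67, Cenpe, Cenpf and Top2a. It scored 0.02 for mitotic entry and -0.02 for spindle and exit. The summed normalized counts of the tubule and podocyte genes ranged from 3000 to 20506 in mutants and from 1699 to 8762 in controls, and 0 of the 9 passed the test. With the maturity score as a covariate, 23 of the 40 fold changes were negative and 17 positive, with a median of -0.02, and 0 passed. Genes of nephron progenitors (12 genes, all tested) had a score of -0.25, -0.25, -0.70 and -0.90 in mutants, against 0.84, 0.40, 0.69 and 0.18 in controls. Of these 12, 3 passed, all lower in mutants, and their summed normalized counts ranged from 15220 to 25509 in mutants and from 28650 to 51141 in controls. Red-cell genes (8 of 10 tested, 0 passing) summed to 207021 to 371363 in mutants and 177254 to 284009 in controls. Of the genes of ureteric bud (9), stroma (8), vessels (7) and macrophages (7), 1 passed, the ureteric bud gene Gfra1, lower in mutants and named after its value was seen. All 7 vessel genes had positive fold changes (median 0.32), as did 6 of 7 macrophage genes (median 0.58). In each list 5 were higher at an unadjusted p under 0.05 (limma). Of all 14974 genes tested, 7742 had positive fold changes and 948 were higher at that p. The vessel score was 0.17, 0.13, 0.30 and 0.06 in mutants, against -0.36, 0.01, -0.09 and -0.22 in controls. The macrophage score was 0.13, 0.23, 0.31 and 0.32 in mutants, against -0.66, -0.23, -0.22 and 0.11 in controls. In both scores every mutant lay above every control. Summed normalized counts were 19450 to 22484 in mutants and 14138 to 18545 in controls for vessel genes, and 3220 to 3521 in mutants and 1860 to 2865 in controls for macrophage genes. The part that any of these cell types plays in the values of the 40 genes was not tested.

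**Figure D4:**
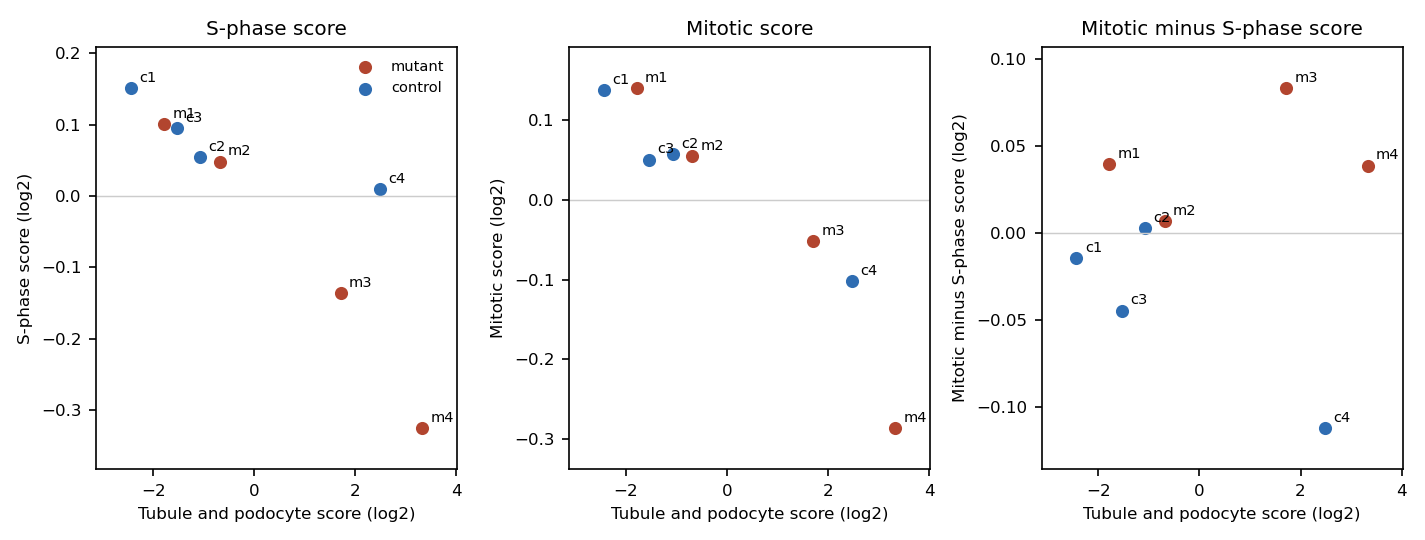
S-phase score (left), mitotic score (middle) and mitotic minus S-phase score (right), in log2 units, against the score of tubule and podocyte genes in the 4 mutant libraries (m1 to m4, red) and 4 control libraries (c1 to c4, blue). Mutants 3 and 4 and control 4 lie at the right with the lowest S-phase and mitotic scores, and in the right panel the mutants lie above the controls, with mutant 2 and control 2 nearly level.

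Control 4 differed from the other controls in a way that followed transcript length, which touches the longest genes of the set. Over all genes tested with a known length, split into 5 equal classes by their longest protein-coding transcript (GENCODE M21), control 4 minus the mean of controls 1 to 3 had medians of 0.31, 0.11, -0.03, -0.17 and -0.36 log2 going from the shortest class to the longest. The same difference for mutant 4 against mutants 1 to 3 was 0.10, 0.04, 0.00, -0.04 and -0.10. Of the 10 genes of the set with at least 4000 bases (Mcm6, Cdc6, Cdk1, Foxm1, Tpx2, Mki67, Top2a, Cenpe, Cenpf and Kif11), control 4 was the lowest control for 9, with a median difference of -0.37; for the 30 shorter genes the median was -0.03, and control 4 was the lowest control for 13 and the highest for 10. Mki67, with a transcript of 10061 bases, had 8948 normalized counts in control 4, against 16794 to 21778 in controls 1 to 3. Cenpe and Cenpf, named after their values were seen, followed Mki67: Cenpe had 5309, 4532, 4325 and 3447 normalized counts in mutants, against 5909, 4835, 5313 and 2582 in controls. Cenpf had 4888, 4366, 4220 and 3106 in mutants, against 5268, 4814, 4711 and 2936 in controls. The length of 4000 bases was chosen after the data were seen, and the part of length in the group comparison was not tested. Leaving control 4 out, the medians were -0.09 for mitotic and -0.16 for S-phase genes, and again 0 of the 40 genes passed.

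**Figure D5:**
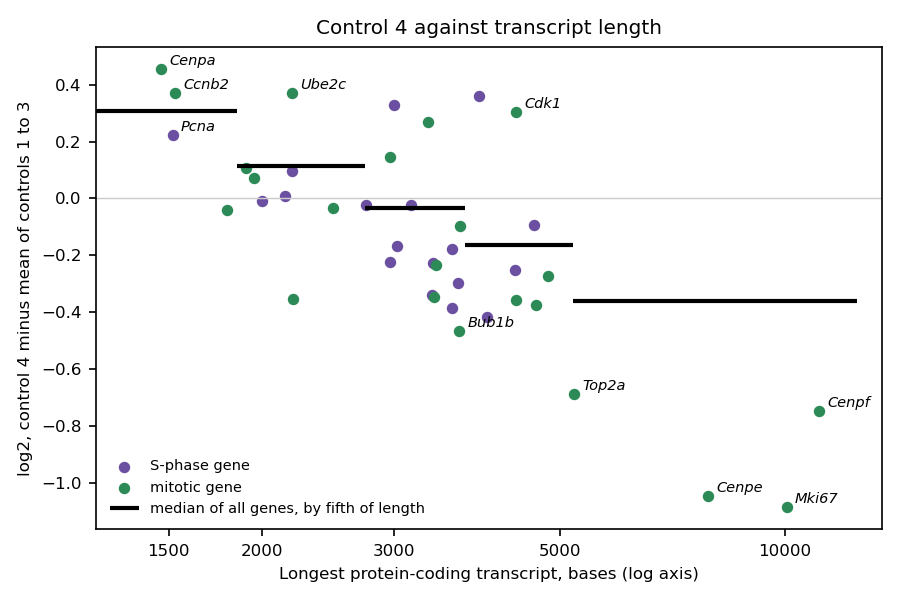
Control 4 minus the mean of controls 1 to 3 on the log2 scale (vertical axis) against the longest protein-coding transcript in bases (log axis) for the 18 S-phase and 22 mitotic genes. Black lines give the median over all genes in each of 5 length classes, cut off at the edges of the plot; Mki67, Cenpe, Cenpf and Top2a lie lowest and Cenpa highest.

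No other gene of the same processes passed the test either. Of 73 other S-phase and mitotic genes listed, 72 were in the table and tested, 0 passed and 4 were lower at an unadjusted p under 0.05, where 5.72% of all genes were. All 33 S-phase genes had negative fold changes (median -0.14), as did 28 of 39 mitotic genes (median -0.06). Within the m755 and c755 libraries, 24 S-phase (median -0.04) and 25 mitotic genes (median -0.04) were negative. In the m816 and c816 pair, with 1 library of each genotype, 32 (median -0.33) and 27 (median -0.19) were negative. Tk1, which encodes the thymidine kinase of the salvage pathway, had 1840, 1872, 1840 and 1559 normalized counts in mutants, against 2134, 2112, 2182 and 2538 in controls. Its groups did not overlap, and its fold change of -0.33 (SE 0.09, unadjusted p = 0.0052, limma adjusted p = 0.180) had the smallest p of these genes. Ung, a uracil-DNA glycosylase, had 1832, 1634, 1507 and 1512 in mutants, against 1977, 1731, 1950 and 2042 in controls (-0.25, SE 0.09, limma adjusted p = 0.312). Among the mitotic genes, Cbx5, which encodes heterochromatin protein HP1 alpha, had 11042, 10084, 10904 and 10362 in mutants, against 12394, 12998, 11223 and 13104 in controls, again without overlap (-0.23, SE 0.08, limma adjusted p = 0.273). Of the 72 genes, 3 did not overlap with mutants lower (Tk1, Cbx5 and Jpt1), a pattern that 4.43% of all genes showed. Cks1b, a cyclin-dependent kinase subunit, differed by -0.28 (SE 0.13, limma adjusted p = 0.423). The extremes among the mitotic genes were Espl1 (0.10) and Lbr (-0.34), neither of which passed. None of the 40 genes and none of these 72 was among the 644 genes of the authors' deposited table of differences.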

How the data were processed

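RNA of snap-frozen kidney pairs was polyA-selected and sequenced in paired-end mode, per the labels' protocols, for 4 mutant and 4 control libraries grouped by genotype; controls are described as littermates, without saying which embryos shared a litter. The submitters' processing notes name fastp 0.23.2, kallisto 0.46.0, DESeq2 1.40.2 and mm10, without roles. The log2 values that the authors deposited are named as normalized, yet 2 to their power minus 1 is whole (within 1e-06) for 73.4% of values and sums to different totals per library, so they were read as log2(estimated count + 1) without depth correction. The authors also deposited a table of 644 genes with a mean normalized signal, log2 fold change, a test statistic (score) and p-values, used to look up names.

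The recovered counts were scaled by median-of-ratios size factors (0.361 in control 4 to 1.27 in control 2). Genes reaching 10 normalized counts in 4 or more libraries entered limma 3.58.1 (R 4.3.3, with trend) as log2 of the normalized count plus 1, with genotype alone in the model. Tests were two-sided; p-values were adjusted by Benjamini-Hochberg across all 14974 genes, at 0.05; fold changes understate those of low genes. P-values measure the spread between libraries. The genes and lists were chosen with earlier results of these data known. Genes given library by library are Mki67, Top2a, Pcna and, in each role, the highest and lowest fold change and the smallest p; in the other lists, the 2 smallest p and both extremes. Some genes that these rules cover are not reported here. The 4 promoters, Mcm6 in the plot of counts, Cenpe and Cenpf were picked after values were seen. Other filters, pseudocounts, scalings, weights, blocks and a maturity covariate were tried, and each library was left out in turn. The steps were tested on simulated data. Positions and lengths come from GENCODE M21 and promoters from RefSeq, both on GRCm38, the assembly of mm10. Figures used matplotlib 3.10.9 in Python 3.11.15.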

Additional observations from a re-analysis of the deposited data

Results flagged for a closer look

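Of 80 sets of 4 values (40 genes in mutants and in controls), 4 had 1 library far from the other 3, all among the controls; chance gives about 1 in 20. In control 4, Cenpa had 3722 normalized counts, against 2619 to 2766 in controls 1 to 3; its log2 fold change was -0.17 with control 4 and -0.06 without it. Ube2c had 7213 in control 4, against 5526 to 5625 in the others; its log2 fold change was -0.23 with control 4 and -0.13 without it. Bub1b had 5134 in control 4, against 6953 to 7222; its log2 fold change was 0.08 with control 4 and -0.03 without it. Cdc20 had 6267 in control 2, against 5601 to 5668 in controls 1, 3 and 4. Of these 4 values, 3 belong to control 4, the shallowest library; the part of depth in them was not tested.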

How the results depend on the processing

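No gene of the 40 passed under any alternative run except limma's library weights, which called 1 (Uhrf1, adjusted p = 0.0393), and 1 of the 72 other cycle genes (Tk1, adjusted p = 0.0457). Over the 40 genes and 24 alternatives, 903 of 960 fold changes stayed within 1 SD, 56 moved further and 1 became called. A fold change could stay within 1 SD and still change sign. Signs changed for 37 of 40 genes with no depth correction and 23 with total-count scaling. They changed for 17 in the m755 and c755 libraries, 14 with the maturity covariate and 13 without mutant 4. In every other alternative 0 to 7 changed. The count of genes called in all, 45, was 123 at adjusted p under 0.1, 11 with total-count scaling, 80 with no depth correction, 28 without trend, 68 with voom, 748 with library weights, 347 with the maturity covariate, 19 in the m755 and c755 libraries, 185 without m816 and c816, and 9 to 170 (the highest without control 4) with 1 library left out. The labels do not say that same-numbered libraries are pairs. Mutants 1, 2 and 4 do share the number in the library name (as in m816 and c816) with the same-numbered control, and mutant 3 does not. Correlations of same-numbered deviations were 0.27, 0.098, -0.13 and 0.35 for replicates 1 to 4. A block by replicate number called 133 genes and 0 of the 40. A block by the number in the library name called 36 genes and 0 of the 40, whose median was then -0.08. Total-count scaling, which moved the median of all genes to 0.14, turned the medians to 0.041 over the 40 genes and 0.052 over the mitotic ones; no depth correction, which moved it to 0.48, gave 0.38, 0.32 (S phase) and 0.39 (mitotic). Under both, the median of the 40 genes stayed below that of all genes. The mitotic median was 0.011 with the maturity covariate, 0.0055 in the m755 and c755 libraries and -0.13 to 0.0045 with 1 library left out, the highest without mutant 4. The mitotic minus S-phase difference was 0.029 in the m755 and c755 libraries. The causes were not tested. Standard errors of the 40 genes ran from 0.07 to 0.26 log2, which limits what 4 libraries a group could show.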
